A study of Mus musculus with 8 samples.

Results

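The iron handling genes described here are 10 genes named on the array as Hamp, Hamp2, Tfrc, Tfr2, Slc40a1, Fth1, Ftl1, Slc11a2, Bmp6 and Scara5. They were taken by gene name from the 36666 names the array carries, and all 10 were among the 17565 genes bright enough to be tested. Transcripts were measured on 8 single-colour Agilent arrays of total RNA from the livers of male mice that had received acetaminophen, a drug whose oxidative metabolite injures hepatocytes. Both groups carried the same labels for sex, tissue, drug and time (8 h) and differed in age, with 4 samples at 8 weeks (young) and 4 at 80 weeks (old). The sources used here give neither the strain nor the dose, and do not say that the arrays came from separate animals, so a p-value reflects only how far these samples spread, which could be technical. Untreated livers were not analysed here. Values are log2 intensity relative to the 75th percentile of each array, differences are old minus young, and a difference was called when limma's Benjamini-Hochberg adjusted p over all tested genes was under 0.05.

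Iron leaves and enters liver cells through a small set of proteins, and its exit answers to hepcidin, the peptide hormone made by hepatocytes. Hepcidin binds ferroportin, the iron exporter encoded by Slc40a1, and causes its degradation, which keeps iron inside hepatocytes, macrophages and enterocytes. Its gene is switched on by bone morphogenetic proteins acting through SMAD factors when iron is plentiful, and by interleukin 6 acting through STAT3 during inflammation. Iron enters cells as transferrin bound by the transferrin receptor or as ferritin bound by SCARA5, crosses the endosomal membrane through DMT1, the product of Slc11a2, and is stored in ferritin shells of heavy and light chains.

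The mouse has a pair of neighbouring hepcidin genes, and their sequences are shown because the data rest on telling one from the other. Hamp encodes the iron-regulatory hormone, and Hamp2 lies beside it on chromosome 7. Each has 1 probe of 60 bases on the array. On build mm9 the Hamp probe lies at chr7:31727490-31727549 and the Hamp2 probe at chr7:31707520-31707579, both on the minus strand. Laid against each other without gaps, the probes overlap by 59 bases, of which 42 are identical and 17 differ. Capitals mark the bases that differ in this ungapped placement.
Hamp probe: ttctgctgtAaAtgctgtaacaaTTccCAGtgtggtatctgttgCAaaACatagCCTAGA
Hamp2 probe: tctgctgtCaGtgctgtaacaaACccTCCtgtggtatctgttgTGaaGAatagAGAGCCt

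The promoters of the pair were aligned with gaps allowed, so their identity is not on the same measure as that of the probes. Over 247 aligned bases upstream of the start sites, 227 were identical and 20 differed, an identity of 91.9%. The sequences are from RefSeq's promoter table on build GRCm38.p6, at chr7:30944030-30944279 for Hamp and chr7:30924182-30924431 for Hamp2, each on the minus strand and 250 bases long. Capitals mark the letters GGCGCC, the core of the BMP response element, or the bases at the same place in Hamp2, and then a match to TTCNNNGAA, a STAT element.
Hamp promoter: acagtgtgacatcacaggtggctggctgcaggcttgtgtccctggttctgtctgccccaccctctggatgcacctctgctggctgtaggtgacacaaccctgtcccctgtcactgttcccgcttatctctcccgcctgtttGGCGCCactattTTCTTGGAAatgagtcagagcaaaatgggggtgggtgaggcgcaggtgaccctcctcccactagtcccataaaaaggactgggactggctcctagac
Hamp2 promoter: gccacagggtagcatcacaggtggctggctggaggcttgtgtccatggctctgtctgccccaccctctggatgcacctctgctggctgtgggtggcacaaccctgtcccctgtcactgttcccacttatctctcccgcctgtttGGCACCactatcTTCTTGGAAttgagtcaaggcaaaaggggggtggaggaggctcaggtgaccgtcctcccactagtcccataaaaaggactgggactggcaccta

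The Hamp window held GGCGCC from -109 to -104 relative to the start site. The Hamp2 window had GGCACC at that place, a substitution of G4A counted from 1 at the 5′ end of the element in Hamp. Both windows held the same STAT match, TTCTTGGAA, from -97 to -89 in Hamp and from -94 to -86 in Hamp2. Among 32851 promoter windows of 250 bases searched on both strands, 9.59% held GGCGCC and 7.02% held TTCNNNGAA, so each match alone is common. Of the 10 genes, 7 were found in the promoter table, with 11 windows. A Tfrc window also held GGCGCC, from -89 to -84. The letters ACGTG, the core of the hypoxia response element, which 16.6% of all windows hold, were present in windows of Tfrc, Tfr2 and Bmp6, and a match to TGACNNNGC, the antioxidant core held by 10.2%, lay in the Bmp6 window. These matches describe letters and not binding.

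One of the 10 genes was called, and it was higher in old livers (Scara5, a ferritin receptor), while 0 were called lower. Scara5 passed the filter on dim probes through the old livers alone, since it was above background in 0 young livers, so the count of 1 describes these arrays and is no support. The other 9 genes were above background on all 8 arrays. Across all 17565 tested genes 0.33% were called higher and 0.0285% lower, or 0.359% in either direction. Those 9 had adjusted p-values from 0.279 to 0.951. At an unadjusted p under 0.05 from the same fit, 1 of the 10 was higher and 2 were lower, against 7.91% and 6.14% of all tested genes. The groups did not overlap for 3 of the 10, of which 1 was higher and 2 lower in old livers, against 4.62% and 3.76% of all tested genes, or 8.38% in either direction. The median difference over the 10 genes was -0.058, with 5 positive and 5 negative, beside a median of 0.018 over all tested genes. Scaling each array to its median moved the median of all tested genes to -0.086, and with it 4 of the 10 were positive. Without young replicates 1 and 2, which are described next, 0 of the 10 were called, and 2 were positive and 8 negative.

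**Figure D1:**
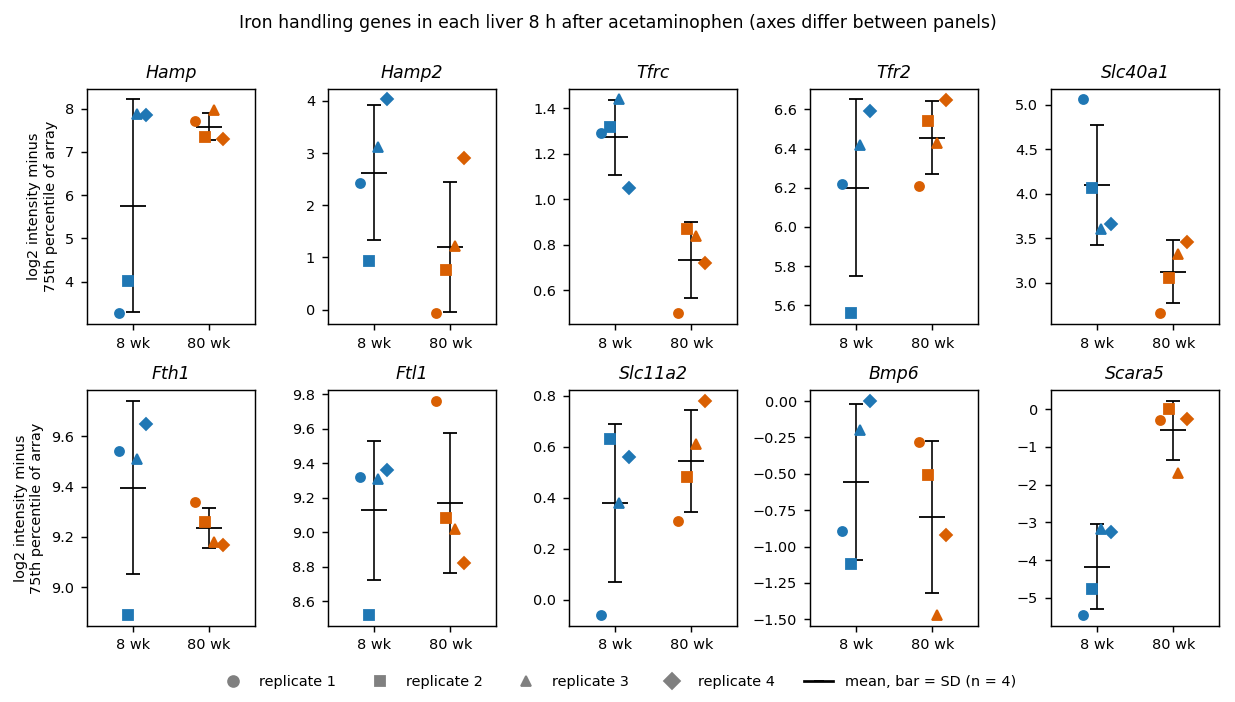
Level of each of the 10 iron handling genes on each array, as log2 intensity minus the array's 75th percentile, with 8-week livers in blue and 80-week livers in orange, the replicate number as the symbol and the mean and SD (n = 4) in black; each panel has its own axis. Hamp on young replicates 1 and 2 lies at 3.27 and 4.01, below the range of 7.31 to 7.97 on the other 6 arrays, and the ages do not overlap for Tfrc, Slc40a1 and Scara5.

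The first principal component over the tested genes placed young replicates 1 and 2 at -61.3 and -99.2, apart from the other 6 arrays at 10.2 to 47.5, and values without this pair are given beside the main results they touch. Both lay below the range of the other 6 arrays for 22.4% of tested genes and above it for 15.9%. The 75th percentile of intensity used for scaling was 225 and 353 on young replicates 1 and 2 and from 155 to 265 on the other 6 arrays. The 8 arrays shared 1 slide and 1 scan, and young samples took row 1, old samples row 2, and age cannot be told apart from slide row. The hepatocyte markers were bright in both groups, with Alb from 8.98 to 9.81 in young and from 9.30 to 10.26 in old livers, as the tissue label has it. Tat was at 6.60 and 5.52 in young livers 1 and 2 (7.51 to 8.37 elsewhere), and Apoa1 at 8.03 and 7.30 (8.14 to 9.05 elsewhere). For Alb, Ttr, Apob, Cps1, Fgb and Ahsg the pair did not both lie outside the other 6 arrays.

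Hamp, the hormone gene, was at 3.27, 4.01, 7.88 and 7.86 in young livers 1 to 4 and at 7.72, 7.35, 7.97 and 7.31 in old livers 1 to 4. The young livers thus fell apart into a low pair and a pair level with the old livers, and the groups overlapped. The higher of the low pair lay 3.30 log2 units, or 9.85-fold, below the lowest of the other 6 arrays. This was the second widest such gap among the 3933 tested genes for which young replicates 1 and 2 both lay below all other arrays. The group means were 5.76 ± 2.46 in young and 7.59 ± 0.32 in old livers (SD, n = 4 each). The difference of 1.83 (SE 1.00, 95% interval -0.42 to 4.08) was not called, with an adjusted p of 0.419. Without young replicates 1 and 2 it was -0.29 (adjusted p = 0.73), and with array weights 0.19. In liver tissue, fewer cells of a type and less RNA per cell cannot be told apart.

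Hamp2 did not follow Hamp array by array. It was at 2.42, 0.94, 3.11 and 4.03 in young livers and at -0.07, 0.75, 1.22 and 2.90 in old livers. Its lowest values were in old livers 1 and 2 and young liver 2, and the groups overlapped. The means were 2.63 ± 1.30 and 1.20 ± 1.25 (SD, n = 4 each), a difference of -1.43 (SE 0.74, 95% interval -3.08 to 0.23, adjusted p = 0.400). It was -2.37 (adjusted p = 0.463) with young livers 1 and 2 left out.

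The contrast between the pair was then taken within each array, a comparison chosen after the values were seen. Its p-values, also when adjusted, do not cover that choice and are no support. Hamp minus Hamp2 was 0.85, 3.07, 4.77 and 3.83 in young livers and 7.79, 6.60, 6.75 and 4.41 in old livers. Old livers 1 to 3 lay above every young liver, and old liver 4 lay below young liver 3. The old-minus-young difference of this contrast was 3.26, with a two-sided exact permutation p of 0.0571, or 0.0761 adjusted over the 4 within-array contrasts made. With 4 samples against 4 the smallest p such a test can give is 0.0286. The difference was 2.09 without young replicates 1 and 2.

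Bmp6 encodes the bone morphogenetic protein that liver sinusoidal endothelial cells release when iron is plentiful, and it drives Hamp. It was at -0.89, -1.12, -0.20 and 0.00 in young livers and at -0.28, -0.51, -1.47 and -0.92 in old livers. The groups overlapped, and young replicates 1 and 2, lowest for Hamp, were also the lowest young livers for Bmp6, although old liver 3 was lower still while its Hamp level was the highest of all 8. The difference was -0.24 (SE 0.33, adjusted p = 0.749), and -0.69 (adjusted p = 0.594) with young livers 1 and 2 left out. Without old liver 3 it was -0.017.

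Tfr2, the transferrin receptor of hepatocytes that takes part in iron sensing upstream of Hamp, was at 6.22, 5.56, 6.42 and 6.59 in young livers and at 6.21, 6.54, 6.43 and 6.65 in old livers. Only young liver 2 stood below the rest on this scale. Its unscaled intensity of 16700 lay within the range of the other arrays, 11500 to 26600. The Tfr2 difference was 0.26 (SE 0.25, adjusted p = 0.641). A second Tfr2 probe gave the same difference of 0.26. The Tfr2 difference was 0.043 without young replicate 2 and -0.052 without young replicates 1 and 2.

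Among 17 other tested genes of BMP and SMAD control of hepcidin, 0 were called, 7 were positive and 10 negative, and the median difference was -0.053. Hjv, the hemojuvelin co-receptor that hepatocytes need for BMP signalling to Hamp, was at -1.97, -3.93, 0.33 and 0.41 in young livers and at 0.67, 0.46, 0.47 and 0.95 in old livers. It was thus low in the same young pair as Hamp, was above background in 3 of 4 young livers, and did not overlap between ages. The Hjv difference was 1.93 (SE 0.85, adjusted p = 0.355), and 0.27 with young livers 1 and 2 left out. Neo1, a receptor that binds hemojuvelin, ran the other way, at 1.84 and 1.57 in young livers 1 and 2 and from -0.03 to 0.37 on the other 6 arrays (difference -0.78, adjusted p = 0.387, or -0.033 with that pair left out). The receptors Acvr2a and Bmpr1a differed by -0.39 and -0.30, with adjusted p-values of 0.517 and 0.543, and Bmpr1a by -0.027 with the mean of its probes. Hfe, whose loss causes hereditary iron overload, was at 3.06 and 2.23 in young livers 1 and 2 and from 3.27 to 3.62 elsewhere. Unscaled, Hfe was 1880 and 1660 in that pair, against 1810 to 2650. Gdf15 was also below the other 6 arrays in both. Smad5 (2.8 and 3.2, against 1.41 to 1.91) and Acvr1 (2.63 and 2.61, against 1.5 to 2.39) lay above them in both. Apart from these, Hjv and Neo1, no gene of the list had both outside the other 6 arrays.

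The 7 genes that BMP signalling switches on had a median difference of 0.074, with 4 positive, 3 negative and 0 called, and it was -0.031 with median scaling and -0.23 without young replicates 1 and 2. Atoh8, a transcription factor that activates Hamp, was at -2.33, -2.03, -0.40 and -0.48 in young livers and at -0.46, -0.24, 0.14 and -0.11 in old livers. It too was low in young livers 1 and 2, and its difference was 1.15 (SE 0.44, adjusted p = 0.318), against 0.28 with that pair left out. Id1 was at 2.46 and 2.18 in that pair and from 3.01 to 5.0 elsewhere. Id2 (4.61 and 4.36, against 4.43 to 5.84) and Id3 (4.78 and 4.15, against 4.52 to 6.16) did not both lie below the other 6 arrays. Neither did Smad6 or Bambi. The inhibitory SMADs did not move as one, since Smad6 differed by 0.61 and Smad7 by -0.61, with adjusted p-values of 0.346 and 0.362. Smad7, which restrains Hamp, was at 0.82 and 0.80 in young livers 1 and 2 and from -0.67 to 0.13 elsewhere, and its difference was -0.21 with that pair left out. Bambi, a decoy BMP receptor, differed by -0.34 (adjusted p = 0.475).

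**Figure D2:**
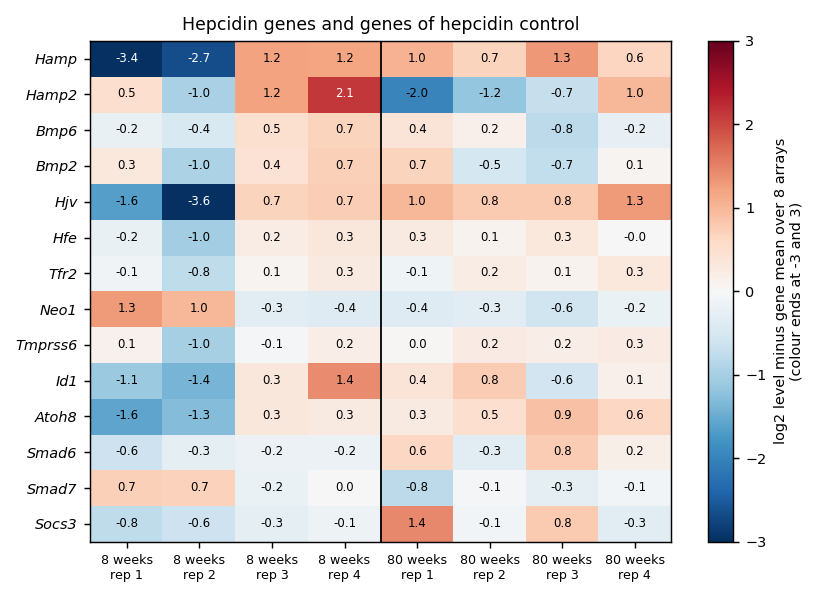
Hepcidin genes and selected genes of hepcidin control, each as log2 level minus its own mean over the 8 arrays, with arrays as columns (8-week livers left of the line, 80-week livers right) and red above and blue below the mean. Hamp, Hjv, Hfe, Id1, Atoh8 and Socs3 are lowest, and Neo1 and Smad7 highest, on young replicates 1 and 2. Id2 and Id3, which were not both lowest on that pair, are not drawn. Gdf15, lowest on the pair, and Smad5 and Acvr1, highest on it, are not drawn either.

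The inflammatory arm of hepcidin control gave 11 tested genes with a median difference of -0.19, 4 positive, 7 negative and 0 called. Socs3, a feedback target of STAT3, differed by 0.91 (SE 0.38, adjusted p = 0.339). It was at 4.84, 4.98, 5.29 and 5.45 in young livers and ranged from 5.27 to 7.04 in old livers, so its lowest values were again in young livers 1 and 2. The signalling genes Il6st, Jak2 and Stat3 had differences of -0.46, -0.47 and -0.42, with adjusted p-values of 0.373, 0.419 and 0.455, and with young livers 1 and 2 left out they were -0.33, -0.22 and -0.36. Il6 itself ranged from -2.79 to -1.39 in young and from -3.40 to -0.24 in old livers and was above background on 4 young and 3 old arrays.

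Of the genes for iron uptake, Tfrc encodes transferrin receptor 1, whose messenger RNA is stabilised when cells are short of iron. It was at 1.29, 1.32, 1.44 and 1.05 in young livers and at 0.50, 0.87, 0.84 and 0.72 in old livers. Every old liver lay below every young liver. The difference was -0.54 (SE 0.18, 95% interval -0.94 to -0.14), which makes the young mean 1.45 times the old, and it was not called (adjusted p = 0.279). With young livers 1 and 2 left out it was -0.51. A second Tfrc probe, earlier in the transcript, gave -0.45 (adjusted p = 0.379 in the fit over 25738 probes) with overlapping groups.

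Scara5, the scavenger receptor that binds serum ferritin, was the 1 called gene, and it was tested only because the old livers carried it past the filter. It was at -5.45, -4.77, -3.18 and -3.26 in young livers and at -0.28, 0.01, -1.70 and -0.26 in old livers. It was above background in 0 of 4 young and 4 of 4 old livers, and old liver 3 was the lowest of the old. The measured means were -4.17 ± 1.13 and -0.56 ± 0.78 (SD, n = 4 each). Because the young values were not well above background, the change is given as an estimated bound on the group means, 6.65-fold higher in old livers. This bound has no interval and holds for the main processing alone. The fitted difference against background-level young signal was 3.61, with a limma adjusted p of 0.0338. The fitted difference was 2.66 (adjusted p = 0.201) without young replicates 1 and 2, and the call was also lost when any 1 of young replicates 1 and 2 and old replicates 1, 2 and 4 was left out, with adjusted p-values from 0.0792 to 0.132, and with normexp background correction, where the fitted difference was 1.498 (adjusted p = 0.0653) with percentile scaling and 1.45 (adjusted p = 0.0526) with quantile scaling. With the replicate number, which is also the slide column, as a block the adjusted p was 0.0896. A second probe, made for the variant 2 record, was above background in 0 young livers and 1 old liver and was not tested.

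SCARA5 is made by fibroblast-like cells in many tissues, so the markers of other cells were set beside it. Of 12 tested stellate and fibroblast markers, 5 were positive, 7 negative and 0 called, and their summed level ranged from 7.60 to 8.17 in young and from 7.91 to 8.50 in old livers. Of 6 tested genes on the adipocyte list, 5 were positive and 1 negative (4 and 2 with median scaling, 3 and 3 without young replicates 1 and 2). Cidea was called higher. The sum of this list ranged from 6.35 to 7.25 in young and from 7.15 to 8.73 in old livers. Cidec and Cidea had its highest old means, 7.25 and 6.27, so in old livers the sum rests mainly on them and does not by itself measure adipocytes. Cidec differed by 1.02, Cfd by 3.47, Lep by 0.25, Plin1 by 0.10 and Fabp4 by -0.52. Adipoq, which defines adipocytes, was above background in 1 young and 0 old livers, and Retn in 2 young and 0 old livers. The part of fibroblast-like cells and adipocytes in the Scara5 difference was not tested.

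Slc11a2 encodes DMT1, the transporter that carries ferrous iron across endosomal and plasma membranes. The gene gives transcripts with different 3′ ends, and the array has 4 probes for it on chromosome 15. The probe that represents the gene, made for the variant 1 record (mm9 chr15:100223347-100223406, minus strand), was at -0.06, 0.63, 0.38 and 0.56 in young livers and at 0.31, 0.48, 0.61 and 0.78 in old livers. These overlapped, and the difference was 0.16 (SE 0.21, adjusted p = 0.728). A probe of the variant 2 record (chr15:100219212-100219271) was at -0.10, -0.26, -0.41 and -0.13 in young livers and at -1.01, -0.97, -1.52 and -1.11 in old livers. Every old liver lay below every young liver on that probe, by -0.93 on average, with an adjusted p of 0.110 over all probes. The next probe of that record differed by -0.95 (adjusted p = 0.282), with overlapping groups. The fourth probe, near the start of the transcript, was above background in 3 young livers and 1 old liver and differed by -0.22.

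The Slc11a2 probes were also compared within arrays, after their values had been seen. The p-values of these contrasts, also when adjusted, do not cover that choice and are no support. The variant 1 probe minus the first variant 2 probe was 0.04, 0.89, 0.79 and 0.69 in young livers and 1.32, 1.45, 2.13 and 1.89 in old livers. Every old liver exceeded every young liver, and the difference of 1.10 had a two-sided exact permutation p of 0.0286, the smallest possible, or 0.0761 adjusted over the 4 contrasts. It was 0.96 without young replicates 1 and 2. Against the other variant 2 probe the difference was 1.12 (exact permutation p = 0.0571, adjusted 0.0761).

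**Figure D3:**
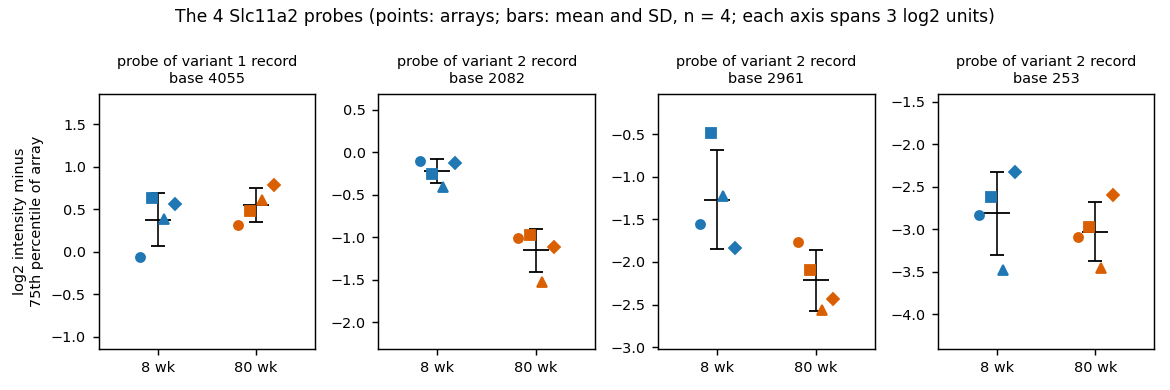
The 4 Slc11a2 probes in 8-week (blue) and 80-week (orange) livers, as log2 intensity minus the array's 75th percentile, with each point an array and bars for the mean and SD (n = 4); each axis has the same span. The variant 1 probe shows overlapping ages, while on the variant 2 probe at base 2082 every old liver lies below every young liver.

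Slc40a1, which encodes ferroportin, the iron exporter that hepcidin degrades, was at 5.06, 4.07, 3.60 and 3.66 in young livers and at 2.66, 3.05, 3.33 and 3.46 in old livers. Every old liver lay below every young liver, and the highest values were in young livers 1 and 2, the pair with the lowest Hamp. The means were 4.10 ± 0.67 and 3.12 ± 0.36 (SD, n = 4 each), and the difference of -0.97 (SE 0.34, 95% interval -1.73 to -0.21) makes the young mean 1.96 times the old. It was not called (adjusted p = 0.294), and it was -0.50 (adjusted p = 0.60) with young livers 1 and 2 left out. A second probe, of an Ensembl transcript, was above background in 3 young and 0 old livers and was not tested. Its groups overlapped, with young liver 4 at -3.06 and old livers 1 and 2 at -2.99 and -2.97. The estimated bound on its group means was 1.93-fold, higher in young livers.

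Macrophages that recycle red cells carry much ferroportin, and their markers were set beside it. Of 11 Kupffer cell and macrophage markers, 9 were positive, 2 negative and 0 called (11 positive and 0 negative without young replicates 1 and 2). Their summed level ranged from 6.86 to 7.93 in young and from 7.07 to 8.55 in old livers. Of 5 tested erythroid markers, 1 was positive and 4 negative (4 positive and 1 negative without young replicates 1 and 2), with a sum from 9.06 to 10.56 in young and from 7.51 to 9.85 in old livers. Hbb-b1, a globin gene, was at 6.15 and 6.14 in young livers 1 and 2 and from 1.93 to 4.82 elsewhere. Hbb-bt and Slc4a1 also lay above the other 6 arrays in both, while Hba-a1 and Alas2 did not. Hba-a1 was at 9.83 and 9.19 in that pair (7.03 to 9.40 elsewhere), and Alas2 at 4.88 and 4.59 (3.75 to 4.85 elsewhere). The part of red cell RNA in the Slc40a1 values was not tested.

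Neither storage gene was called. Fth1, the ferritin heavy chain with the iron-oxidising centre, was at 9.54, 8.89, 9.51 and 9.65 in young livers and at 9.34, 9.26, 9.18 and 9.17 in old livers, a difference of -0.16 (SE 0.21, 95% interval -0.62 to 0.30, adjusted p = 0.730). Ftl1, the light chain, was at 9.32, 8.52, 9.31 and 9.36 in young livers and at 9.76, 9.08, 9.02 and 8.82 in old livers, a difference of 0.044 (SE 0.27, 95% interval -0.57 to 0.66, adjusted p = 0.951). Young liver 2 was the lowest for both on this scale, and its array had the highest 75th percentile. Unscaled, it was not the lowest, with Fth1 at 167000 (100000 to 167000 elsewhere) and Ftl1 at 130000 (114000 to 143000 elsewhere). The second Ftl1 probe differed by -0.24, and the contrast of the 2 Ftl1 probes by 0.28 (exact permutation p = 0.457, adjusted 0.457). Ferritin genes have near-identical copies and pseudogenes in the genome, so their probe values are uncertain.

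**Figure D4:**
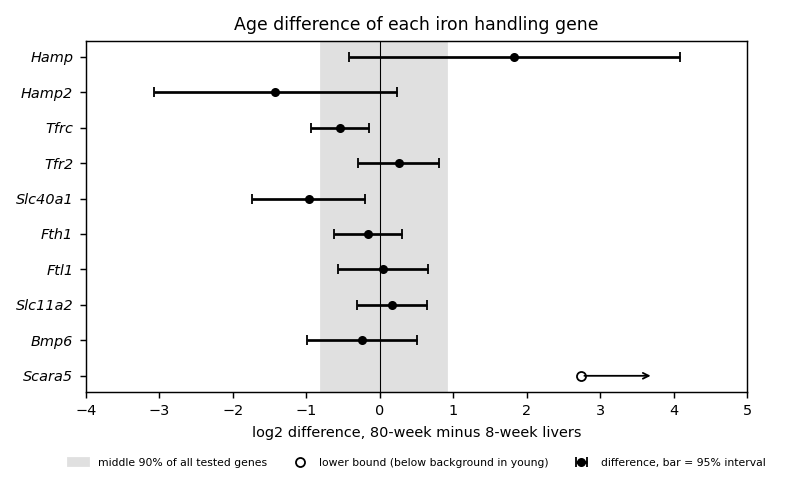
Log2 difference (80-week minus 8-week livers) of each iron handling gene, with its 95% interval from the limma fit, not adjusted for the number of genes, over a grey band from -0.80 to 0.92 that holds the middle 90% of all tested genes. The intervals of Tfrc and Slc40a1 leave out 0. Scara5, which was above background in 0 young livers, is drawn as its estimated lower bound of 6.65-fold (open circle and arrow) with no interval.

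Other genes of iron and heme handling were listed by role, and of 77 tested, 0 were called higher or lower, while at an unadjusted p under 0.05 from limma 13 were higher (16.9%, against 7.91% of all tested genes) and 4 lower (5.2% against 6.14%). The groups did not overlap for 8 higher (10.4% against 4.62%) and 4 lower genes (5.2% against 3.76%). The median difference was -0.0053, with 38 positive. Young livers 1 and 2 both lay below the other 6 arrays for 24 of the 77 (31.2%, against 22.4% of all tested genes) and above them for 13 (16.9% against 15.9%).

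All 5 tested plasma carriers had negative differences, except that 1 was positive after normexp background correction, with a median of -0.022 and 0 called. Transferrin (Trf), hemopexin (Hpx) and ceruloplasmin (Cp) differed by -0.01, -0.03 and -0.02, with adjusted p-values of 0.988, 0.955 and 0.968. Lipocalin 2 (Lcn2), which binds iron-carrying siderophores, differed by -0.65 (SE 0.45, adjusted p = 0.503), or -0.27 with young livers 1 and 2 left out.

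Of the 15 tested genes for transport across membranes, 8 were positive, 7 negative and 0 called, with 5 higher and 3 lower at an unadjusted p under 0.05 and 4 higher and 3 lower without overlap. Slc48a1, which moves heme out of lysosomes, was at 4.77, 4.94, 3.96 and 4.32 in young livers and ranged from 3.21 to 3.78 in old livers. The groups did not overlap, and the difference was -0.99 (SE 0.25, adjusted p = 0.173), or -0.64 with young livers 1 and 2 left out. Lrp1, the receptor that clears hemopexin with its heme, was at 2.96, 2.77, 3.43 and 3.19 in young livers and from 3.78 to 3.87 in old livers, a difference of 0.74 (SE 0.19, adjusted p = 0.173). With the mean of its tested probes the Lrp1 difference was 0.25 (adjusted p = 0.637). Steap2, a metalloreductase, differed by -1.45 (adjusted p = 0.240) and Flvcr1, described as a heme exporter, by -0.82 (adjusted p = 0.287), both without overlap. With young livers 1 and 2 left out these were -0.84 and -0.42. None of these was called, by limma over all tested genes.

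Iron sensing and storage turnover gave 8 tested genes with a median of -0.081, 3 positive, 5 negative and 0 called. Aco1, the iron regulatory protein that binds Tfrc and ferritin messenger RNA, was from 4.76 to 4.91 in old livers and at 4.16, 4.23, 4.59 and 4.75 in young livers (difference 0.44, adjusted p = 0.353, or 0.20 with young livers 1 and 2 left out). Its partner Ireb2 differed by 0.24 (adjusted p = 0.626). Pcbp1, a chaperone that loads iron into ferritin, differed by -0.35 (adjusted p = 0.387), or -0.23 with that pair left out. Hmox1, the heme-degrading enzyme induced by heme and oxidative stress, ranged from 7.41 to 8.61 in young and from 5.30 to 8.60 in old livers (difference -0.80, adjusted p = 0.578). Without old replicate 3, the lowest, the Hmox1 difference was -0.091.

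Of 14 genes of mitochondrial iron use, 12 were positive and 2 negative, with a median of 0.36, and 0 were called. Without young replicates 1 and 2, 8 were positive and 6 negative, with a median of 0.034. Abcb10, an inner membrane transporter, differed by 0.75 (SE 0.24, adjusted p = 0.264) and Lyrm4, a partner of the cysteine desulfurase Nfs1, by 0.44 (adjusted p = 0.331), both without overlap, and Nfs1 by 0.61 (adjusted p = 0.351). Nfs1 differed by 0.029 (adjusted p = 0.953) with the mean of its tested probes. Lyrm4 and Nfs1 differed by 0.26 and 0.18 with young livers 1 and 2 left out. Slc25a37, the mitochondrial iron importer mitoferrin 1, was at 5.08, 4.14, 2.90 and 3.02 in young livers and at 2.14, 3.30, 2.49 and 2.58 in old livers. Its level was highest in young livers 1 and 2, where Hbb-b1, Hbb-bt and Slc4a1 were also highest, but Hba-a1 and Alas2 not in both. The Slc25a37 difference was -1.16 (SE 0.48, adjusted p = 0.338), or -0.33 with that pair left out. The part of red cell RNA in this difference was not tested.

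The cells that make Bmp6 and Hamp were checked by their own markers. Of 10 sinusoidal endothelial markers, 2 were positive, 8 negative and 0 called, with a summed level from 6.44 to 7.01 in young and from 6.29 to 7.06 in old livers, and 3 were positive after normexp. The 8 hepatocyte markers had 6 positive, 2 negative and 0 called, with a sum from 10.90 to 11.92 in young and from 11.35 to 12.16 in old livers, but 4 were positive with median scaling and 1 without young replicates 1 and 2. Monocyte markers numbered 7, with 1 positive, 6 negative and 0 called (4 positive and 3 negative without young replicates 1 and 2), and their sum ranged from 6.17 to 7.55 in young and from 5.82 to 7.15 in old livers. Of the cholangiocyte markers 2 were tested, with 1 positive and 1 negative.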

How the data were processed

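RNA from 8 liver samples was hybridised to 8 single-colour Agilent arrays of 62976 spots. The authors deposited scanner output whose intensity was already corrected for background by Feature Extraction 10.7.3.1, per the file headers. Version 9.1 of Agilent Feature Extraction is the one in the submitters' processing notes. Samples were grouped by the age in their titles.

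From the deposited processed signal, outlier spots (59 to 97 per array) were dropped, log2 was taken, replicate spots were averaged, and the 75th percentile of the array's non-control probes was subtracted. Between 43.3% and 50.4% of probes were well above background and no spot was saturated. Probes well above background on at least 4 of 8 arrays were tested, and the brightest tested probe stood for its gene. The ages were tested by limma (version 3.58.1, under R 4.3.3) with lmFit and eBayes (Benjamini-Hochberg adjustment over 17565 genes, threshold 0.05), and the script was tested on simulated data. Precision is limited by the number of arrays.

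Where every array of a group left a gene under background, its fold is an estimated lower bound on group means for the main processing. It sets the mean of the brighter group against a floor for the dimmer one, taking on each array whichever is higher, the gene's signal or the dimmest probe that was well above background. The summed marker level is the log2 of the markers' summed scaled intensities. Within-array contrasts used exact permutation tests. Named genes are the 10 iron handling genes and, of each pathway list, the 4 with the smallest p, and other genes named were chosen after their values were seen. The iron handling genes and all lists were chosen with earlier results of these data known. Positions of probes were copied from the array files, on build mm9, and exon annotation was not used here. The authors' deposited value table of intensity, equal to the processed signal to within 1% at 100% of probes, served as an alternative and held 0 columns of other samples. Other alternatives were normexp (offset 50), quantile and median scaling, other filters, the mean of a gene's probes, other variance priors, array weights, a replicate block and omission of arrays.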

Additional observations from a re-analysis of the deposited data

Results flagged for a closer look

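For the 38 named genes each age group of 4 was searched for an array far from the other 3, and 5 of 76 groups (6.58%) held one, where chance gives about 1 in 20. Ftl1 was at 8.52 on young replicate 2 and from 9.31 to 9.36 on the other 3 young arrays. Its unscaled intensity was 130000 there and from 114000 to 143000 on the other 3. Scara5 was at -1.70 on old replicate 3 and from -0.28 to 0.01 on the other old arrays. Bambi was at 1.31 on old replicate 1 against 0.95 to 0.97. Aco1 was at 4.76 on old replicate 1 against 4.91 on each of the others. Ireb2 was at 2.43 on young replicate 2 against 1.97 to 2.01. The search cannot find 2 arrays that stand apart together, as Hamp does on young replicates 1 and 2.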

How the results depend on the processing

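The 38 named genes were recomputed under 21 other settings. Of 796 values, 762 kept their direction and their side of the threshold, 25 changed sign and 9 lost the call. Over all tested genes 58 were called higher and 5 lower. The calls were 8 lower with quantile scaling, 8 lower with no filter and 8 lower with a trended prior, 9 lower with the mean of probes, 64 higher and 13 lower with median scaling, 20 higher and 1 lower with the filter on all 8 arrays, and 136 higher and 36 lower with array weights. Omitting 1 array gave 25 to 69 higher and 2 to 14 lower, and omitting young replicates 1 and 2 together gave 12 and 2. The Scara5 difference was 1.498 (adjusted p = 0.0653) and 1.45 (0.0526) with normexp and percentile or quantile scaling, 2.66 (0.201) without young replicates 1 and 2, and 3.18 to 3.99 over single omissions. Same-numbered samples lay in the same column of the slide for all 4 numbers. Their deviations correlated at 0.0256 for number 1 and at 0.104 to 0.141 for the other 3, whose young samples correlated best with their own number, so a pairing was not shown for every pair. With the replicate block, 53 were called higher and 17 lower, and Scara5 stayed at 3.61 with an adjusted p of 0.0896. Ftl1 changed sign most often, to -0.018 with normexp and quantile scaling, -0.030 with quantile scaling, -0.061 with median scaling, -0.098 with the mean of probes, -0.16 when young replicates 1 and 2 were left out and -0.20 with array weights, and it ran from -0.157 to 0.159 over single omissions. Slc11a2 was -0.48 with the mean of probes. Without young replicates 1 and 2, Hamp was -0.29 and Tfr2 -0.052. Cp was 0.011 with normexp and percentile scaling, Trf was 0.010 with the mean of probes, and over single omissions Hpx ran from -0.194 to 0.064, Cp from -0.150 to 0.071 and Trf from -0.178 to 0.084. The cause of these changes was not tested. Scara5 could not be fitted with the filter on all 8 arrays. Signal over background limits Scara5, whose young values are below it, and the number of arrays limits the rest.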
